A study of Mus musculus with 6 samples.

Results

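The genes described here are Myc, its relative Mycn and 41 nucleolar factors that build ribosomes. They were taken as the rows of the deposited count table whose symbol is on a fixed list of 43 names, and each name had a row. All 43 passed the filter on low counts, among 55573 genes listed and 20646 genes tested. The mutant libraries (MUT) came from mice with an R355X copy of Etv6 (Etv6 R355X/+), and the libraries they were set against came from wild-type mice (Etv6+/+, WT). ETV6 is an ETS-family transcription factor that represses its target genes, and the title of the series puts its question as the part of ETV6 in inflammatory genes and in stem and progenitor cell function under stress. There were 3 mutant and 3 wild-type libraries of bone marrow LSK cells, a fraction rich in stem cells and early multipotent progenitors of the blood, sorted as lineage-negative, Sca-1-positive and c-Kit-positive cells. All mice were of strain C57BL/6J and 3 months old, and no treatment is given in the labels. In the labels the genotype of the mutant reads Etv6+/-, while the series text gives the R355X allele, and the labels do not say whether each library is 1 mouse.

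MYC is a transcription factor that binds DNA as a dimer with MAX, most strongly at the E-box CACGTG, and raises the output of genes for growth. Ribosome assembly is one of its best-known target programmes. RNA polymerase I copies ribosomal DNA into a long precursor in the nucleolus, small nucleolar ribonucleoproteins (snoRNPs) guide its chemical modification, and separate sets of assembly factors cut and fold it into the small and the large ribosomal subunit. In blood-forming cells MYC is known for its part in the balance between stem cell retention and differentiation, and stem cells are known to make little protein compared with their progeny.

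The promoter letters come first, since the E-box is the preferred sequence of MYC. RefSeq promoter windows (assembly GRCm38.p6, from 250 bases before to 50 bases after the start of the gene) were found for 36 of the 43 members. The letters CACGTG, which read the same on both strands, stood in 7 of these 36 windows (19.4%). They stood in 11.3% of the 11688 tested genes with a window, and in 8.09% of all 27025 genes with one. The related letters CACGCG or their complement CGCGTG stood in 12 of 36 members (33.3%), against 18.5% of tested genes and 10.5% of all genes with a window. A match describes the letters of the window and is not a measured binding site. The part around CACGTG in each of the 7 windows is given 5′ to 3′ on the strand of the gene, with CACGTG in capitals.
Ltv1 (chr10:13193092-13193121, minus strand): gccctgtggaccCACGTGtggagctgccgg
Utp20 (chr10:88826765-88826789, minus strand): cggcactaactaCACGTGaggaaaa
Nop2 (chr6:125131811-125131840, plus strand): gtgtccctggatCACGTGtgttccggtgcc
Wdr43 (chr17:71616220-71616249, plus strand): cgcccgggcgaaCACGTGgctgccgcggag
Mybbp1a (chr11:72441355-72441376, plus strand): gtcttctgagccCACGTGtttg
Pes1 (chr11:3963965-3963994, plus strand): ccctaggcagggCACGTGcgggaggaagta
Nle1 (chr11:82908355-82908384, minus strand): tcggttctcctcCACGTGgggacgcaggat
In Nop2 the motif begins 60 bases before the start of the gene. In the other 6 it begins within the transcript, at base 29 in Ltv1, 38 in Utp20, 18 in Wdr43, 41 in Mybbp1a, 3 in Pes1 and 24 in Nle1, counted from 1 at the start. Of the 7 genes, 3 belong to small subunit assembly, 3 to large subunit assembly and 1 to the RNA polymerase I group.

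The libraries held between 45.2 M and 92.2 M expected counts, most in mutant library 1, and the members between 320 and 105962 counts each. Levels are given as CPM, counts per 1000000 counts of the library size after TMM scaling, in the order of replicates 1, 2 and 3. Etv6 itself measured 305, 341 and 386 CPM in the mutant libraries, against 454, 419 and 400 CPM in the wild-type libraries. The groups did not overlap, and the log2 fold change was -0.30 (SE 0.086), with an adjusted p of 0.245 in edgeR's quasi-likelihood test (Benjamini-Hochberg over all genes). The sorting markers were present in every library, Ly6a (Sca-1) at 81.3, 75.9 and 77.4 CPM in mutant and 93.5, 92.1 and 71.7 CPM in wild type, and Kit at 351 to 393 CPM in mutant and 385 to 451 CPM in wild type. Summed markers of B cells stood at 206 to 370 CPM in mutant and 130 to 164 CPM in wild type, with 9 of 9 genes above 0 in log2 fold change. Those of mast cells, basophils and eosinophils stood at 128 to 138 CPM in mutant and 106 to 111 CPM in wild type, with 8 of 8 genes above 0. None of the 74 marker genes was at 0 in any library. The part of these cells in the differences below was not tested.

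Most members measured a little lower in mutant LSK cells. The log2 fold change was below 0 for 37 of 43 members, against 49.4% of all tested genes, and the median over the members was -0.15, against 0.0019 over all tested genes. No difference was large. The 43 values ran from -0.38 for Myc to 0.17 for Polr1c, and 3 members, Myc, Nop2 and Ltv1, differed by more than 1.2-fold. With adjustment over all genes 0 of 43 members passed edgeR's quasi-likelihood test, and 0.266% of all genes passed (55 genes). The lowest adjusted p of a member was 0.181, for Myc. DESeq2 called 1 member, Myc, with 1.59% of all genes called, and limma-voom called 0 members, with 0.199% of all genes called. Without a filter on low counts edgeR also called Myc, with 1.58% of 33271 genes called. At an unadjusted p under 0.05 there were 16 members, all lower in mutant, where 10.6% of all tested genes had such a p, 4.80% with a lower and 5.83% with a higher mutant level. All mutant libraries lay below all wild-type libraries for 17 members, against 7.84% of all tested genes, and for 0 members did all mutant libraries lie above, against 8.45% of all tested genes. Genes with a mean of at least 5 CPM, a level that every member reached, gave similar background shares, with 52.0% below 0, 5.77% with an unadjusted p under 0.05 and lower, and 9.30% with every mutant library below every wild-type library. Bulk RNA cannot tell fewer cells of a type from less RNA per cell, and since the labels do not give separate animals, p-values here measure the spread between these samples.

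**Figure D1:**
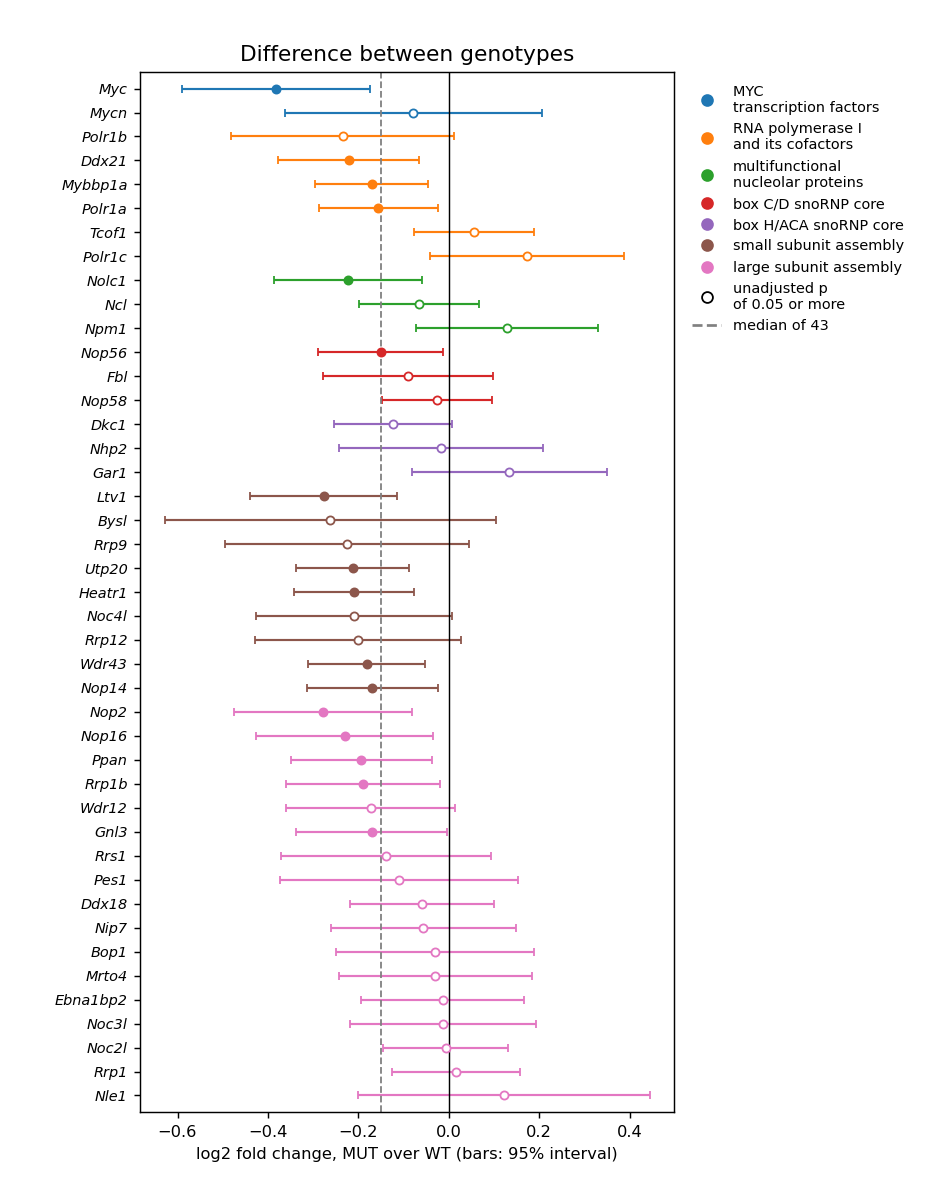
Log2 fold change (MUT over WT) of the 43 members, grouped by role, with 95% intervals from the fit over all genes; filled points have an unadjusted p under 0.05 and the dashed line marks the median of -0.15. The 16 filled points all lie below 0, and all 9 small subunit factors do.

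Myc, on chromosome 15 (mm10, chr15:61985391-61990374, plus strand), was the member with the largest difference. It measured 234, 219 and 240 CPM in the mutant libraries, against 274, 352 and 277 CPM in the wild-type libraries. The highest mutant library lay under the lowest wild-type library, and wild-type library 2 stood well above the other two. The mean was 231 ± 11.0 CPM in mutant and 301 ± 44.6 CPM in wild type (SD, n = 3), a level in mutant of 76.7% of wild type with a 95% interval from 66.5% to 88.6%. Its log2 fold change was -0.38 (SE 0.094), which edgeR's quasi-likelihood test did not call (unadjusted p = 0.00199, adjusted p = 0.181). The exact permutation test on log2 CPM, two-sided, gave p = 0.1, the smallest that 3 against 3 allows. Without wild-type library 2 the log2 fold change was -0.25. Over the 6 settings that leave out 1 library it ran from -0.45 to -0.25.

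Mycn encodes a second MYC protein, which can stand in for MYC in blood stem cells of mice. It measured 23.5, 24.6 and 27.6 CPM in the mutant libraries, against 25.5, 32.1 and 22.4 CPM in the wild-type libraries. The genotypes overlapped, with wild type holding both the highest and the lowest library, and the mutant level was 94.7% of wild type (95% interval 77.8% to 115%; log2 fold change -0.079, SE 0.13, adjusted p = 0.878). The direction rested on single libraries, since the log2 fold change was 0.076 without wild-type library 2, -0.19 without wild-type library 3, -0.15 without mutant library 3 and -0.029 without mutant library 1. Per kilobase of the principal transcript Myc stood far above Mycn, at 169 ± 8.04 CPM per kb in mutant and 221 ± 32.7 in wild type, against 9.44 ± 0.797 CPM per kb in mutant and 9.96 ± 1.85 in wild type for Mycn. The size of this gap depends on the transcripts used. That of Myc has 1365 bases, where all its exons hold 2717, and that of Mycn has 2674, where all its exons hold 3295.

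**Figure D2:**
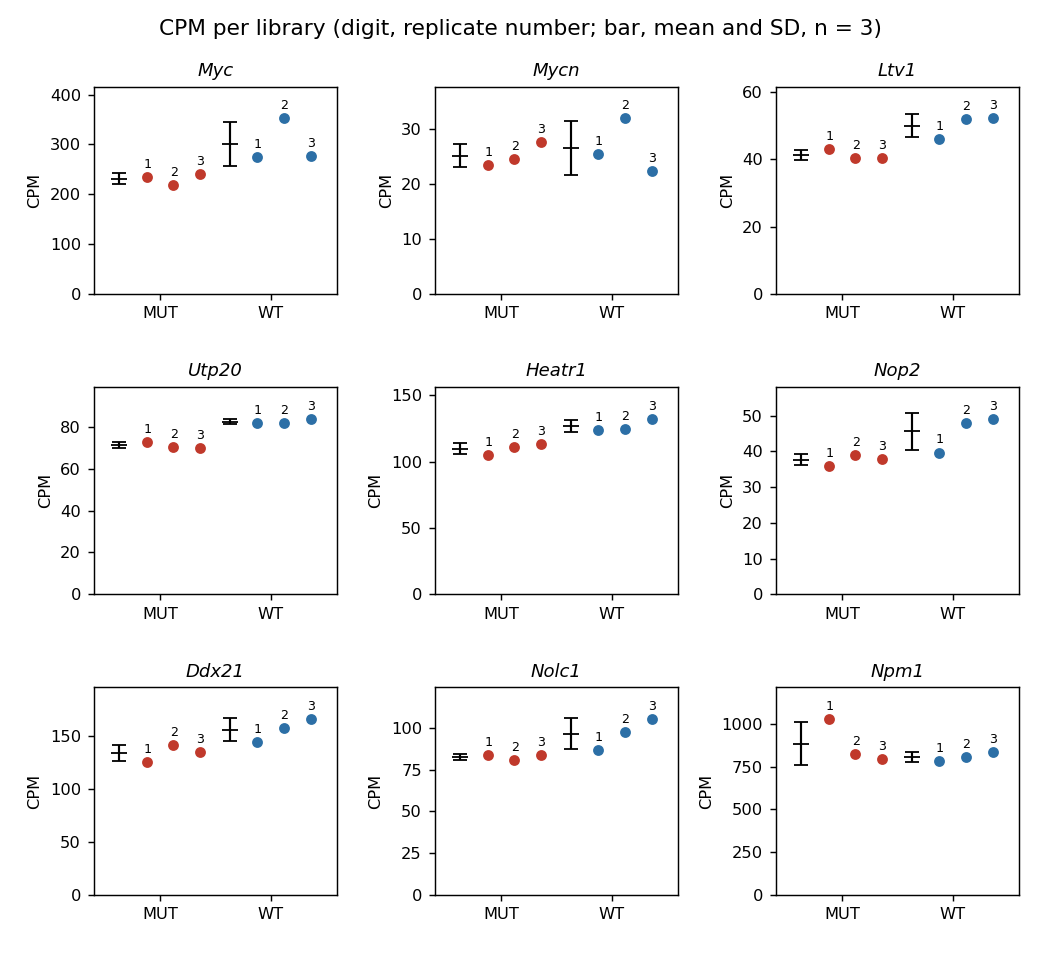
CPM of Myc, Mycn and 7 assembly factors in each library (points, numbered by replicate), with the mean and SD of 3 libraries beside them; MUT left, WT right, axes from 0. Every mutant point of Myc, Ltv1, Utp20, Heatr1, Nop2, Ddx21 and Nolc1 lies below every wild-type point, while Mycn and Npm1 overlap.

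Every small subunit assembly member measured lower in mutant. All 9 log2 fold changes were below 0, between -0.28 and -0.17 with a median of -0.21. Of the 9, 5 had an unadjusted p under 0.05, where 4.80% of all tested genes had such a p with a lower mutant level. All mutant libraries lay below all wild-type libraries for 7, against 7.84% of all tested genes, and 0 passed with adjustment over all genes. The summed level of the 9 genes was 450, 451 and 454 CPM in the mutant libraries, against 493, 529 and 542 CPM in the wild-type libraries. The mutant sums lay within 4 CPM of each other, and the wild-type sums stood higher and further apart.

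Ltv1 encodes a factor that stays with the small subunit precursor until late maturation in the cytoplasm. It measured 42.96, 40.5 and 40.4 CPM in the mutant libraries, against 46.0, 51.9 and 52.2 CPM in the wild-type libraries. The groups did not overlap, and the log2 fold change was -0.28 (SE 0.074, adjusted p = 0.215). Utp20, a very large scaffold protein of the small subunit processome, measured 72.9, 70.6 and 70.2 CPM in the mutant libraries, against 81.7, 81.9 and 84.0 CPM in the wild-type libraries. Both groups were tight, with wild-type library 1 level with the other wild-type libraries, and the log2 fold change was -0.21 (SE 0.057, adjusted p = 0.215). Heatr1, the relative of yeast Utp10, is needed for ribosomal DNA transcription and for the early cuts in the precursor. It measured 105, 111 and 113 CPM in the mutant libraries, against 124, 125 and 132 CPM in the wild-type libraries. Here too the groups did not overlap (log2 fold change -0.21, SE 0.060, adjusted p = 0.245). Wdr43 and Nop14, both processome components, had log2 fold changes of -0.18 and -0.17 and no overlap. Nop14 shares 5.3% of its exon bases with the antisense gene Gm15522, at 0.318 CPM in mutant and 0.529 CPM in wild type on average. Rrp9, a protein of the U3 snoRNP, and Rrp12, an export factor, also did not overlap, at log2 fold changes of -0.23 and -0.20 with unadjusted p-values of 0.0940 and 0.0781. Noc4l (-0.21) and Bysl (-0.26) overlapped. Bysl shares 9.4% of its exon bases with Ccnd3 on the opposite strand, at 105 ± 11.4 CPM in mutant and 90.1 ± 9.39 CPM in wild type (SD, n = 3), well above the level of Bysl, and the split of reads between them was not tested. In Bysl the mutant libraries lay between 18.5 and 21.3 CPM, while wild-type library 1 was the lowest of all, at 17.0 CPM, and wild-type library 3 the highest, at 28.9 CPM.

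Large subunit assembly was more mixed. Of 17 members 15 were below 0, but the median was -0.059 and 0 passed with adjustment. An unadjusted p under 0.05 was found for 5, all lower, where 4.80% of all tested genes had such a p with a lower mutant level. All mutant libraries lay below all wild-type libraries for 3, against 7.84% of all tested genes. The summed level was 923, 942 and 947 CPM in the mutant libraries, against 931, 1051 and 1043 CPM in the wild-type libraries, so wild-type library 1 lay among the mutant sums. Without that library the median was -0.16, and without wild-type library 2 it was -0.035. Nop2, a methyltransferase that marks a cytosine of the large ribosomal RNA, measured 36.0, 39.1 and 37.7 CPM in the mutant libraries, against 39.7, 48.0 and 49.2 CPM in the wild-type libraries. The groups were apart by less than 1 CPM at wild-type library 1 and by more at the other two (log2 fold change -0.28, SE 0.089, adjusted p = 0.303). Ppan, the relative of yeast Ssf1, measured 49.9, 49.0 and 52.9 CPM in the mutant libraries, against 53.9, 61.4 and 58.3 CPM in the wild-type libraries. Wild-type library 1 was again the nearest to the mutant values (log2 fold change -0.19, SE 0.070, adjusted p = 0.378). Nop16, a nucleolar protein of the large subunit precursor, measured 35.6, 40.2 and 39.7 CPM in the mutant libraries, against 41.8, 43.2 and 50.5 CPM in the wild-type libraries. The log2 fold change was -0.23 (SE 0.088, adjusted p = 0.403), with no overlap. It was -0.14 without wild-type library 3, and -0.088 without that library and mutant library 1 together.

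Gnl3 (nucleostemin, a nucleolar GTPase known from stem cells) and Rrp1b had log2 fold changes of -0.17 and -0.19 with unadjusted p-values of 0.0461 and 0.0322, and their groups overlapped. The members of the PeBoW complex, which joins Pes1, Bop1 and Wdr12 on the large subunit precursor, had log2 fold changes of -0.11, -0.031 and -0.17, each with overlapping groups. The other 9 large subunit members ran from -0.14 for Rrs1 to 0.12 for Nle1, and each of them overlapped. They were Rrs1, Ddx18, Nip7, Mrto4, Ebna1bp2, Noc3l, Noc2l, Rrp1 and Nle1. Nle1, which acts in large subunit release and is needed for blood stem cells in mice, had the lowest CPM of all members, 7.95 ± 0.865 in mutant and 7.30 ± 0.709 in wild type (SD, n = 3). Noc2l shares 20.9% of its exon bases with Samd11 on the opposite strand, the largest such share among the members, with Samd11 at 1.90 CPM in mutant and 2.05 CPM in wild type on average.

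**Figure D3:**
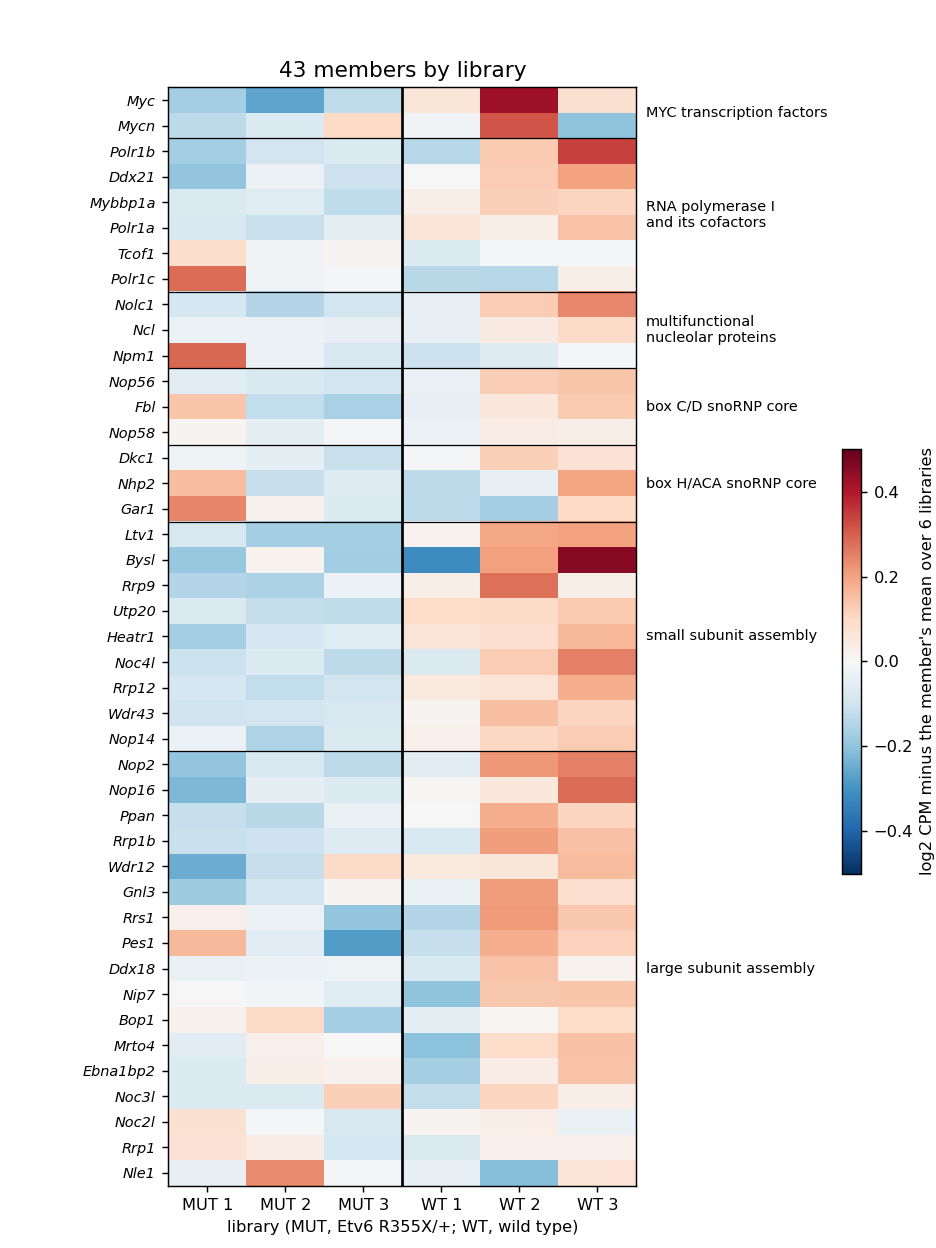
Log2 CPM of each member in each library minus the member's mean over the 6 libraries (colour, from -0.5 to 0.5), rows grouped by role, MUT libraries left and WT libraries right. Wild-type libraries 2 and 3 are mostly red, and wild-type library 1 is near 0 or blue in most rows outside small subunit assembly.

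The RNA polymerase I group split. Ddx21, an RNA helicase that acts in ribosomal DNA transcription and precursor processing, measured 126, 141 and 135 CPM in the mutant libraries, against 145, 158 and 166 CPM in the wild-type libraries. The groups did not overlap (log2 fold change -0.22, SE 0.070, adjusted p = 0.296). Mybbp1a, a nucleolar protein that binds MYB and takes part in precursor processing, measured 135, 136 and 130 CPM in the mutant libraries, against 144, 154 and 152 CPM in the wild-type libraries. It did not overlap either, at a log2 fold change of -0.17 (SE 0.057, adjusted p = 0.323). Polr1a, the largest subunit of the polymerase, measured 81.0, 78.9 and 82.6 CPM in the mutant libraries, against 89.1, 86.9 and 94.1 CPM in the wild-type libraries. Its log2 fold change was -0.16 (SE 0.059, adjusted p = 0.400), with no overlap. The second subunit, Polr1b, had a log2 fold change of -0.23 with an unadjusted p of 0.0595 and overlapping groups. Polr1c, a subunit that RNA polymerase I shares with RNA polymerase III, had the highest log2 fold change of the 43. It measured 43.5, 35.4 and 35.5 CPM in the mutant libraries, against 32.6, 32.4 and 36.5 CPM in the wild-type libraries. Mutant library 1 stood alone at the top and the remaining mutant values lay inside the wild-type range, so the 0.17 (SE 0.097, adjusted p = 0.580) became 0.067 without that library. Tcof1 (treacle, a cofactor of ribosomal DNA transcription) was at 0.056 with overlap.

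The snoRNP core proteins differed little. In the box C/D core, which adds methyl groups to ribosomal RNA, the scaffold protein Nop56 measured 254, 251 and 248 CPM in the mutant libraries, against 257, 287 and 290 CPM in the wild-type libraries. The groups were apart by less than the distance between wild-type libraries 1 and 2 (log2 fold change -0.15, SE 0.063, adjusted p = 0.436). Its partner Nop58 measured 160, 154 and 157 CPM in the mutant libraries, against 155, 163 and 162 CPM in the wild-type libraries, and the groups overlapped (log2 fold change -0.026, SE 0.055, from -0.046 to -0.0099 with 1 library left out; 95% interval of the mutant level 90.3% to 107% of wild type). The methyltransferase Fbl (fibrillarin) measured 97.4, 81.4 and 79.2 CPM in the mutant libraries, against 86.1, 91.9 and 97.1 CPM in the wild-type libraries. Mutant library 1 was the highest of all and the other mutant libraries were the lowest (log2 fold change -0.091, SE 0.085, adjusted p = 0.757). Without mutant library 1 that value was -0.19, and without mutant library 2, mutant library 3 or wild-type library 3 it was -0.052, -0.035 or -0.048.

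In the box H/ACA core, which turns uridine into pseudouridine, the enzyme Dkc1 (dyskerin) measured 193, 189 and 181 CPM in the mutant libraries, against 195, 213 and 206 CPM in the wild-type libraries. The groups did not overlap but came within 3 CPM of each other (log2 fold change -0.12, SE 0.059, adjusted p = 0.497). Gar1 measured 58.2, 49.9 and 46.9 CPM in the mutant libraries, against 44.9, 43.8 and 52.7 CPM in the wild-type libraries. The groups overlapped at a log2 fold change of 0.13 (SE 0.098, adjusted p = 0.675), which was 0.039 without mutant library 1, 0.084 without wild-type library 2 and 0.22 without wild-type library 3. Nhp2 measured 43.2, 35.8 and 37.1 CPM in the mutant libraries, against 35.4, 37.7 and 44.5 CPM in the wild-type libraries, with overlap throughout (log2 fold change -0.018, SE 0.10, adjusted p = 0.973), and the value ran from -0.10 to 0.082 with 1 library left out. The spans of 7 members overlap 21 annotated snoRNA genes, and some of these share bases with annotated exons of the member (133 bases for Snora75 in Ncl). The snoRNA genes' own rows held at most 18 counts in any library. Of these rows 11 were at 0 in every library and none passed the filter, so the snoRNAs were not compared.

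The abundant nucleolar proteins Npm1 and Ncl overlapped between genotypes, and Nolc1 did not. Per kilobase of its principal transcript Npm1 (nucleophosmin, a histone-binding nucleolar protein that is often mutated in myeloid leukemia in people) was the highest of all members, at 541 ± 77.4 CPM per kb in mutant and 495 ± 17.4 in wild type (SD, n = 3). This rank depends on the transcripts used, which have 1633 bases for Npm1 and 8202 for Ncl. In CPM it measured 1028, 824 and 797 in the mutant libraries, against 781, 804 and 838 in the wild-type libraries. Mutant library 1 stood apart and the rest overlapped, so the log2 fold change of 0.13 (SE 0.091, adjusted p = 0.665) was 0.0054 without it and 0.20 without mutant library 3. Ncl (nucleolin, which binds the precursor and unfolds nucleolar chromatin) measured 1212, 1212 and 1203 CPM in the mutant libraries, against 1202, 1274 and 1320 CPM in the wild-type libraries. Wild-type library 1 lay level with the mutant libraries (log2 fold change -0.066, SE 0.060, adjusted p = 0.749, with -0.10 without wild-type library 1 and -0.034 without wild-type library 3; mutant level 95.5% of wild type, 95% interval 87.2% to 105%). Nolc1, a chaperone of snoRNPs in the nucleolus, measured 83.9, 80.5 and 83.6 CPM in the mutant libraries, against 86.8, 97.4 and 105 CPM in the wild-type libraries. The groups did not overlap (log2 fold change -0.22, SE 0.074, adjusted p = 0.327). At the low end per kilobase were Rrp12, at 3.00 in mutant and 3.45 in wild type, and Nle1, at 4.46 in mutant and 4.09 in wild type.

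Wild-type library 1 sat nearer to the mutant libraries than to the other wild-type libraries over these genes. For 37 of the 43 members it lay below both wild-type libraries 2 and 3, where 33.2% of all tested genes had that order. The members' median log2 deviation from their own mean was -0.070, -0.067 and -0.068 in the mutant libraries, against -0.041, 0.11 and 0.13 in the wild-type libraries. The mutant libraries were level with each other, and wild-type libraries 2 and 3 made up most of the distance. Wild-type library 3 was the highest of the 6 for 20 members, wild-type library 2 for 13 and wild-type library 1 for 0. Among the 9 small subunit members wild-type library 1 lay above the highest mutant library for 7, within the mutant range for 1 and below it for 1. Among the large subunit members it lay above for 3 of 17, within for 9 and below for 5. Over all 20646 tested genes it lay above for 5459, within for 9721 and below for 5466. The sums of further factors outside the members did not keep this contrast between subunits. Over 45 further small subunit factors wild-type library 1 stood at 1962 CPM, below the mutant libraries at 1966 to 1969 CPM. Over 47 further large subunit factors it stood at 2691 CPM, above the mutant libraries at 2630 to 2649 CPM. The summed neutrophil list stood at 4578 to 6321 CPM in mutant and at 6106, 5904 and 8908 CPM in wild type. Its Elane, Mpo, Prtn3 and Ctsg were highest in wild-type library 3, with Mpo at 4688 CPM there and 2015 to 2673 CPM elsewhere. The other genes of the list, S100a8, S100a9, Ltf, Camp, Ngp and Retnlg, were not highest in that library. Proliferation genes summed to 4585 to 5197 CPM in mutant and to 4448, 4286 and 5238 CPM in wild type. The part of either list in the result was not tested. Without wild-type library 1, 38 members were below 0 with a median of -0.19 and 21 had an unadjusted p under 0.05. Without wild-type library 2, 31 were below 0 with a median of -0.11 and 9 had such a p, and without wild-type library 3 these were 32, -0.12 and 12. Without mutant library 2 there were 10 with such a p and 35 below 0. All 9 small subunit members were below 0 in every one of these settings.

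**Figure D4:**
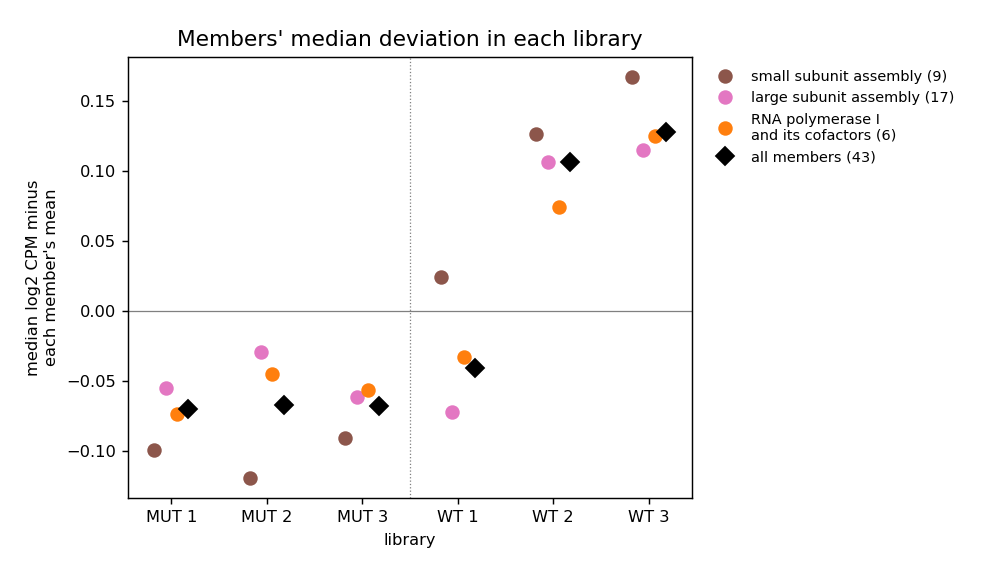
Median over genes of log2 CPM minus each gene's mean over the 6 libraries, by library, for all 43 members (diamonds) and 3 role groups (points). The mutant libraries lie between -0.12 and -0.029, wild-type libraries 2 and 3 lie between 0.074 and 0.17, and wild-type library 1 lies above 0 for the small subunit group and below 0 for the others.

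Mutant library 1 differed from the other mutant libraries in a way that went with transcript length. It was the highest of all 6 libraries for 7 members and the lowest for 9. The 7 were Npm1, Polr1c, Gar1, Fbl, Rrp1, Noc2l and Tcof1, whose principal transcripts have 1633, 1314, 1271, 1197, 1984, 2785 and 4529 bases. Against the mean of mutant libraries 2 and 3 it was higher for 24 of 43 members, with a median log2 ratio of 0.019. The same relation with length was not computed for other single libraries. Across the 43 members the log2 ratio of mutant library 1 to the mean of mutant libraries 2 and 3 had Pearson's r of -0.38 and Spearman's rho of -0.30 with the log of transcript length. Across 11618 genes with a mean of at least 5 CPM these were -0.25 and -0.34. Genes share their libraries and are not independent replicates, so both are descriptions. That library also had 1.26% of its counts in the ribosomal transcript AY036118, against 0.253% to 0.431% in the other mutant libraries and 0.247% to 0.322% in wild type. Members of at least 3000 bases (16 genes) had a median log2 fold change of -0.19 with 15 below 0, and members under 3000 bases (27 genes) had a median of -0.091 with 22 below 0. A fall of the log2 fold change with transcript length was not particular to the members. Pearson's r was -0.30 and Spearman's rho -0.28 across the members, against -0.245 and -0.279 across the 11618 genes, again as descriptions. With the trend of each library with length and GC content removed, 36 of 43 members were below 0, the median was -0.14 and 15 had an unadjusted p under 0.05. Without mutant library 1, 36 were below 0 with a median of -0.16.

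Members with and without an E-box in the window both measured lower in mutant for the most part, and the difference between them was not tested. Of the 7 with CACGTG 6 were below 0, 5 had an unadjusted p under 0.05 and the median log2 fold change was -0.18. Of the 29 with a window but no CACGTG 26 were below 0, 10 had such a p and the median was -0.15. Ltv1, Utp20, Nop2, Wdr43 and Mybbp1a were the 5, while Pes1 was at -0.11 and Nle1 at 0.12.

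Other genes of the pathway, 195 tested of 196 listed, gave the setting for the members. Of them 138 were below 0 and the median was -0.078. An unadjusted p under 0.05 was found for 38 (33 lower and 5 higher in mutant). Among all tested genes 10.6% had such a p, 4.80% lower and 5.83% higher in mutant. With adjustment over all genes 0 passed edgeR's quasi-likelihood test, while DESeq2 called 4 (Ccnd1, Ccnd2, Mdn1 and Exosc6). Further small subunit factors were below 0 in 37 of 45 with a median of -0.10 (-0.069 without wild-type library 3), and 7 had an unadjusted p under 0.05, all lower. The processome proteins Nol6 and Pdcd11 (yeast Rrp5) had log2 fold changes of -0.25 (SE 0.065, adjusted p = 0.208) and -0.20 (SE 0.060, adjusted p = 0.264), and Nol10 of -0.34 (SE 0.11, adjusted p = 0.296). Nol6 measured 35.0, 36.1 and 36.9 CPM in the mutant libraries, against 43.5, 42.5 and 42.4 CPM in the wild-type libraries, and here wild-type library 1 was the highest. The sum of the 45 genes did not share this order, at 1966, 1968 and 1969 CPM in mutant, against 1962, 2144 and 2177 CPM in wild type.

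Further large subunit factors were below 0 in 38 of 47 with a median of -0.099. Of the 47, 14 had an unadjusted p under 0.05, 13 of them lower, where 10.6% of all tested genes had such a p, 4.80% lower. Mdn1, a giant AAA ATPase that strips assembly factors from the large subunit precursor, measured 257, 270 and 275 CPM in the mutant libraries, against 311, 334 and 304 CPM in the wild-type libraries (log2 fold change -0.24, SE 0.060, adjusted p = 0.183). The export adaptor Nmd3 was at -0.26 (SE 0.065, adjusted p = 0.191) and the helicase Ddx51 at -0.26 (SE 0.073, adjusted p = 0.240). None of these 3 genes had overlapping groups. The median of this list was -0.16 without wild-type library 1.

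The snoRNP assembly list was below 0 in 8 of 13 (median -0.064; -0.030 without wild-type library 3 and -0.035 without wild-type library 2), with 1 unadjusted p under 0.05, that of the AAA ATPase Ruvbl1 at -0.13. Nucleases and exosome subunits were below 0 in 13 of 18 (median -0.056; -0.034 without wild-type library 3). There 2 had such a p, Exosc5 at -0.16 and Exosc6 at 0.84, where 10.6% of all tested genes had one. Exosc6, a gene of low level, measured 9.10, 5.05 and 7.49 CPM in the mutant libraries, against 3.16, 3.77 and 5.23 CPM in the wild-type libraries with overlap. The remaining RNA polymerase I apparatus was below 0 in 8 of 17 (median 0.029). In it Twistnb (-0.19) and the initiation factor Rrn3 (-0.17) were lower and Znrd1 (0.25) was higher at unadjusted p under 0.05, and the median was -0.050 without mutant library 1, -0.046 without wild-type library 1, -0.028 without mutant library 3, 0.00020 without wild-type library 3 and 0.060 without wild-type library 2.

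Partners, antagonists and turnover factors of MYC showed no common direction, with 8 of 18 below 0 and a median of 0.0024 that ran from -0.018 to 0.017 with 1 library left out. An unadjusted p under 0.05 was held by 2 of the 18, where 10.6% of all tested genes had one. The antagonist Mxd4 was at 0.22 (unadjusted p = 0.0296, adjusted p = 0.421) and the MAX-binding repressor Mga at -0.16 (unadjusted p = 0.0337, adjusted p = 0.434). Max itself, at 114 ± 14.2 CPM in mutant and 103 ± 4.43 CPM in wild type (SD, n = 3), was at 0.15 (SE 0.086, adjusted p = 0.586). Known MYC targets outside ribosome assembly were below 0 in 26 of 37 (median -0.078; -0.13 without wild-type library 1 and -0.045 without wild-type library 3), and 9 had an unadjusted p under 0.05, 8 lower and 1 higher. The higher one was the cyclin Ccnd1, at 55.9, 58.0 and 60.2 CPM in the mutant libraries, against 42.7, 47.0 and 35.7 CPM in the wild-type libraries. Every mutant library lay above every wild-type library (log2 fold change 0.47, SE 0.094, adjusted p = 0.0926). The cyclin Ccnd2 measured 170, 194 and 197 CPM in the mutant libraries, against 229, 243 and 218 CPM in the wild-type libraries, in the other direction and without overlap (-0.30, SE 0.072, adjusted p = 0.170). Odc1, the entry enzyme of polyamine synthesis, was at -0.19 (SE 0.075, adjusted p = 0.415). Proliferation genes were below 0 in 10 of 26 with a median of 0.039, and 0 had an unadjusted p under 0.05. This median changed sign without mutant library 1 (-0.019), wild-type library 1 (-0.0025) or wild-type library 2 (-0.014), and was 0.14 without wild-type library 3.

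**Figure D5:**
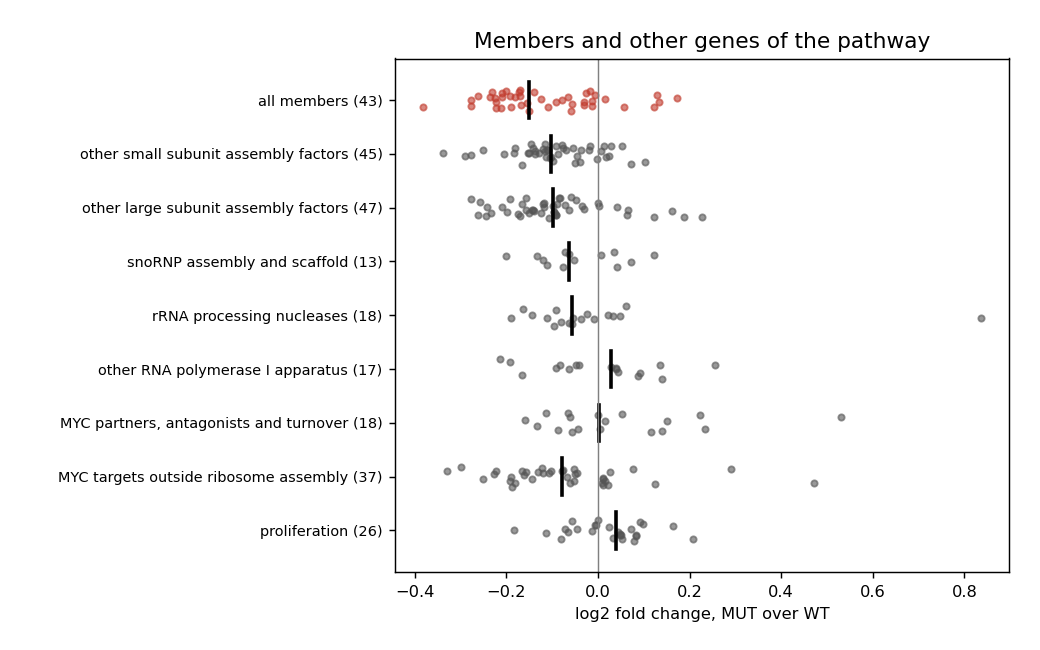
Log2 fold change (MUT over WT) of each gene (points) in the 43 members and in 8 lists of other genes of the pathway, with the number of tested genes in brackets and the median of each list as a bar. The medians of the members (-0.15) and of the other small and large subunit factors (-0.10 and -0.099) lie below 0, and those of MYC partners (0.0024), the other RNA polymerase I genes (0.029) and proliferation genes (0.039) lie at or above 0 with all libraries but below 0 without mutant library 1 or without wild-type library 1.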

How the data were processed

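Total RNA of sorted LSK cells was amplified by single-primer isothermal amplification, which does not mark the strand, and the sheared cDNA was made into libraries, per the labels' protocols. The deposited table holds the authors' expected counts per gene, not scaled for library size. Trim Galore 0.60, STAR 2.7, RSEM 1.31 and build mm10 are named in the submitters' processing notes, and the annotation release is not given in the sources used here. In such expected counts a read with several possible origins is divided between genes, and 13 of the 43 members had a value that was not whole in some library (tolerance 0.005). Without strand information, reads of overlapping genes cannot be told apart, and 17 members share exon bases with a gene on the opposite strand.

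Counts were rounded to whole numbers, 92 spike-in rows at 0 were left out, genes were filtered with filterByExpr and libraries scaled by TMM. The quasi-likelihood test of edgeR 4.0.16 in R 4.3.3 compared the genotypes, two-sided and with no covariate, and its p-values were adjusted by Benjamini-Hochberg over the 20646 genes tested, with a threshold of 0.05. Standard errors were derived from each F statistic, and 95% intervals from the t distribution with the residual degrees of freedom of the fit. Interval and error both rest on 3 libraries per genotype. Background shares count all tested genes by the same rule. Libraries of 1 genotype differed beyond counting noise (chi-square per gene 11.2 to 46.5), and each was used as 1 replicate; repeat preparations of 1 sample would also differ beyond it. Positions, overlaps and transcript lengths come from GENCODE mouse release M21, where 55394 IDs matched without version. Levels per kb and transcript lengths use 1 principal transcript per gene, the longest where several ranked equally. Whether it is the form present in these cells was not tested, so levels between genes and the split by length depend on that choice. The scripts were tested on simulated data.

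The members and lists were chosen with earlier results of these data known, so their shared direction, already seen in them, is not independent support. Values in every library are given for Myc, Mycn, the 3 members of each role group with the smallest unadjusted p, and the largest rise and fall. Of other lists, up to 3 genes with the smallest p are named. Members outside this rule are named to account for all 43. Alternatives were DESeq2 1.42.0, limma-voom (limma 3.58.1), scaling by RLE or by library size alone, no filter or a stricter one on low counts, a replicate block, leaving out mitochondrial and ribosomal RNA genes, leaving out each library and 1 pair of libraries, and, chosen after seeing the data, removing trends with transcript length and GC content.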

Additional observations from a re-analysis of the deposited data

How the results depend on the processing

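Over all genes 55 passed the threshold, against 329 with DESeq2, 527 without a count filter, 32 with the replicate number as a block and 16 to 67 with 1 library left out. Of the members 0 passed, against 1 (Myc) with DESeq2 (log2 fold change -0.39, adjusted p = 0.00984) and 1 (Myc) without a count filter (-0.38, adjusted p = 0.000836). Over the 16 alternatives the adjusted p of Myc ran from 0.000836 to 0.460, the highest without wild-type library 2. Members with an unadjusted p under 0.05 numbered 16, 9 to 21 with 1 library left out and 10 without mutant library 1 and wild-type library 3 together. Of the other pathway genes 4 passed with DESeq2 and 5 without a count filter (Ccnd1, Ccnd2, Mdn1 and Exosc6 in both, and Pfas in the second). Etv6 passed without a count filter (-0.30, adjusted p = 0.0111). The cause of these shifts was not tested. The same 28 members were below 0 in all 16 alternatives, and the same 5 were above 0 in all of them. Members below 0 numbered 31 to 38. Library size alone moved the median of all genes to -0.034 and that of the members to -0.19. The replicate numbers gave no sign of pairing the samples. Same-numbered libraries had correlations of -0.044, -0.10 and -0.20 in their deviations over 15999 genes, and libraries did not correlate best with their own number. Deviations from the mean of only 3 libraries constrain each other, so this cannot exclude a pairing. With the replicate number as a block 37 members were below 0 (median -0.15) and 15 had an unadjusted p under 0.05. Depth was lowest for Nle1, with 320 to 644 counts per library.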
